A study of Homo sapiens with 2 samples.

Results

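The ID genes and 6 genes of TGF-beta signalling (LTBP3, ACVR2A, SMAD3, SMAD7, SKIL and TGFBI) were compared between 2 digital gene expression libraries of A549 cells, a human lung adenocarcinoma line. These 10 genes were taken from the 13137 genes of the deposited table by their symbols, and all 10 were found. One library was labelled shRNA-SOX2 and came from cells that carried a doxycycline-inducible hairpin RNA against SOX2, a transcription factor of stem cells. The other was labelled shRNA-Con and came from cells with a scrambled hairpin. Per the study's methods, each hairpin was delivered to wild-type A549 cells by lentivirus under an H1tetO promoter, the puromycin-selected cells with the SOX2 hairpin were a polyclone, and the control cells went through the same selection. All cells received doxycycline for 4 days, and 4 µg of total RNA was taken from each. With 1 library per condition there was no replicate, so every test below compares those libraries and not the conditions, and every interval covers counting error alone.

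ID proteins are helix-loop-helix proteins without a DNA-binding region of their own. They pair with E proteins such as TCF3, TCF4 and TCF12 and keep these from binding DNA, and they are known for holding back differentiation and for supporting proliferation. Their genes are textbook targets of BMP signals, which pass through SMAD1 and SMAD5, whereas TGF-beta and activin signals pass through SMAD2 and SMAD3. TGF-beta is secreted in a latent form bound to LTBP proteins, and it is a growth-restraining signal in normal epithelium that carcinoma cells often answer in other ways.

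Gene tags totalled 2304184 in shRNA-Con against 2093816 in the other library, 65.5% and 60.6% of its clean tags, so levels are given in CPM, the tags of a gene scaled to a total of 1000000 gene tags. One tag is counted per captured mRNA, so levels were not divided by gene length. The columns of the table carry abbreviations only, and SC was read from its initials as shRNA-Con and S1 as shRNA-SOX2, so that every direction given here rests on that reading. Where a pair of values is given without names, shRNA-Con comes first. The transcript of the targeted gene was not lower under its own hairpin. SOX2 had 16 tags in shRNA-Con against 23 in the library labelled shRNA-SOX2 (ratio 1.58, 95% interval 0.80 to 3.2, adjusted p = 0.333, Fisher's exact test). The 7 epithelial markers together stood at 9553 CPM in shRNA-Con against 10701 in the library labelled shRNA-SOX2 and 5 of 6 markers of the A549 line at 8231 and 11318, although EPCAM had only 8 and 4 tags and CLDN4 0 and 2. These sums hide opposite changes. Of the epithelial markers 2 were called higher and 2 lower, among them KRT8 with 7702 and 12729 tags and KRT7 with 3899 and 1606. Of the markers of the line 2 were called higher and 3 lower, with ALDH1A1 at 7035 and 14268 tags and AKR1C2 at 770 and 286. Their part in the results below was not tested. Markers of other cell types were low or not listed (2 of 4, 1 of 4 and 2 of 6 were in the table), with summed levels of 5.64 and 5.73 CPM for blood cells, 1.30 and 0 for endothelium and 20 and 24.8 for fibroblasts. The last of these came mainly from COL1A1 with 44 and 43 tags. In such bulk RNA, fewer cells with a transcript and less transcript per cell cannot be told apart.

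All 4 ID genes were up-regulated in the library labelled shRNA-SOX2, together with TGFBI and LTBP3, and ACVR2A had no tag there. SMAD3, SMAD7 and SKIL had lower levels there without passing the test. Of the 10 genes, 6 were higher and 1 was lower at an FDR of 0.001 (Fisher's exact test, two-sided, with p-values adjusted over all genes by the method of Benjamini and Hochberg). Of all genes, 9.53% were called higher and 12.2% lower, 21.7% in all. The list was put together with earlier results of these libraries in view, some of its genes are among the cancer genes that the study selected on the same libraries, and its count is therefore a description. The same 7 genes were called with TMM factors or the median ratio. With the total of clean tags SMAD3 and SKIL passed as well, and the share of lower calls over all genes moved from 56.1% to 66.6%. That share was 49.4% with TMM factors and 49.7% with the median ratio, so the excess of lower calls over all genes did not hold under either. Clean tags moved the median log2 fold change of all genes with at least 20 tags from -0.10 to -0.22, and every direction given here for the 10 genes held under each scaling.

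**Figure D1:**
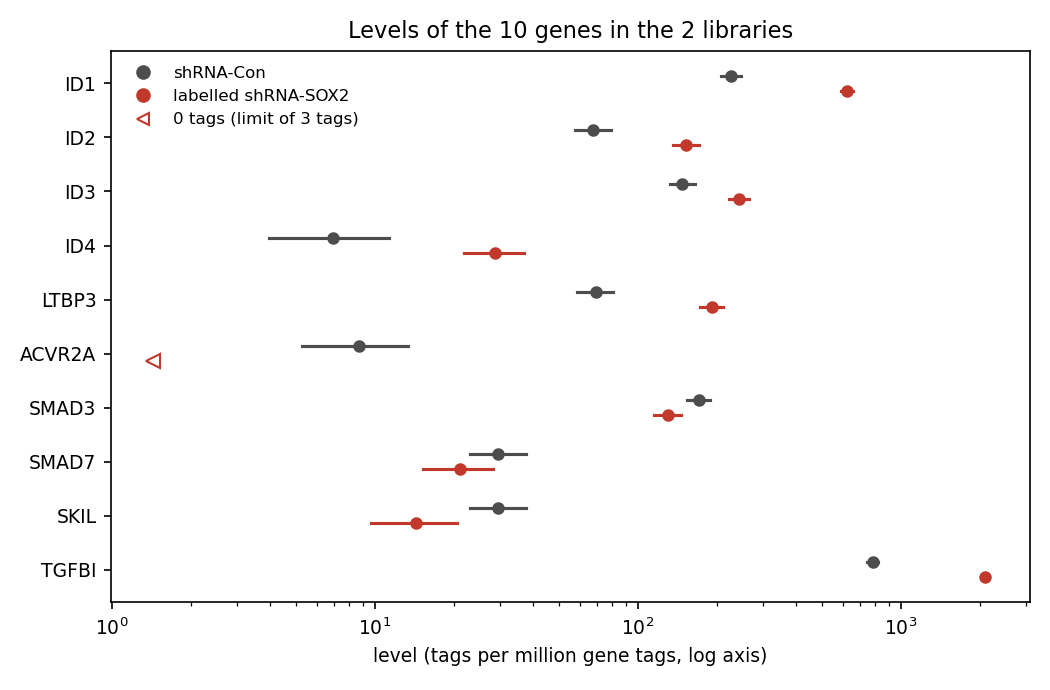
Levels of the 10 genes in CPM on a log axis, shRNA-Con in grey and the library labelled shRNA-SOX2 in red, with exact 95% Poisson intervals. The ID genes, LTBP3 and TGFBI lie to the right in red, and ACVR2A, with 0 tags, is drawn at the limit of 3 tags.

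ID1 had the highest level of the family and ID4 the largest fold change. For that reason the 250 bases before their annotated starts are shown (RefSeq, GRCh38.p14, plus strand). Capitals mark, on either strand, the CCAAT box, the TATAAA box and the sequence CAGAC, which SMAD proteins can bind.
ID1, chr20:31605039-31605288: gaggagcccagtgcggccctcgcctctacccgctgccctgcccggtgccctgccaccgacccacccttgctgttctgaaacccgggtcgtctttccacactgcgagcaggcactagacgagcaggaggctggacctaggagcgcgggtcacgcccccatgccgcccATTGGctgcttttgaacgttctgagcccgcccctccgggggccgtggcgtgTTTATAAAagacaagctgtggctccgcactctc
ID4, chr6:19837120-19837369: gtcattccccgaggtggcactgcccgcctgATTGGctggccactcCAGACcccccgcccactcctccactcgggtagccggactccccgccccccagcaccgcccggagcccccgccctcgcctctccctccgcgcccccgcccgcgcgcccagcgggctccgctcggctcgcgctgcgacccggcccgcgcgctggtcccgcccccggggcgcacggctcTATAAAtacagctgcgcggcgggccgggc
In the window of ID1, CCAAT in reverse began 84 bases before the start, and matches to TATAAA on both strands overlapped at 33 and 31 bases. In that of ID4, CCAAT in reverse began at 220 bases, CAGAC at 205 and TATAAA at 29. The windows of ID2 and ID3 lie largely in exons of longer transcripts and are not printed. The window of ID2 held 3 matches to CCAAT and that of ID3 none, and the window of ID3 held 1 match to CAGAC. These motifs were not limited to the ID genes. CAGAC was also found in windows of SMAD3, SMAD7 and SKIL, TATAAA in one of SMAD7 and CCAAT in one of SMAD3. The windows of LTBP3, ACVR2A and TGFBI held none of them. Over 27305 promoters of this length 33.0% held CCAAT, 11.1% TATAAA and 37.8% CAGAC. The sequence GGCGCC, a motif of BMP-responsive promoters, was found in none of the ID windows but with 1 match each in those of SKIL and TGFBI and 2 in the first window of SMAD3, and in 16.1% of all promoters. Only these 250 bases were searched, so whether the ID genes carry the motif farther away cannot be said.

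ID1 (Entrez Gene ID 3397; GENCODE release 29, GRCh38, chromosome 20, 31605283 to 31606515, plus strand) was the most abundant ID transcript in both libraries. It had 520 tags in shRNA-Con against 1307 in the library labelled shRNA-SOX2, which is 226 and 624 CPM. The level was 2.77-fold higher (95% interval 2.50 to 3.07, adjusted p = 2.83e-93, Fisher's exact test). The intervals of the levels, 207 to 246 and 591 to 659 CPM, did not overlap.

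ID2 (3398; chromosome 2, 8678845 to 8684453, plus strand) had 156 tags in shRNA-Con against 320 in the library labelled shRNA-SOX2, or 67.7 and 152.8 CPM. This was a 2.26-fold increase (1.86 to 2.75, adjusted p = 1.70e-16, Fisher's exact test). ID2 is known for its part in lymphoid and mammary development and also binds proteins of the retinoblastoma family.

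ID3 (3399; chromosome 1, 23557918 to 23559794, minus strand) had 340 and 506 tags, or 147.6 CPM in shRNA-Con against 241.7 in the library labelled shRNA-SOX2. Its 1.64-fold increase (1.42 to 1.88, adjusted p = 1.87e-11, Fisher's exact test) was the smallest of the family.

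ID4 (3400; chromosome 6, 19837386 to 19840684, plus strand) was the least abundant, with 16 tags in shRNA-Con against 60 in the library labelled shRNA-SOX2. The levels were 6.94 and 28.7 CPM, a 4.13-fold increase with a wide interval (2.35 to 7.68, adjusted p = 2.39e-07, Fisher's exact test). ID4 has been described as an antagonist of the other ID proteins as well as of E proteins.

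The order of the ID levels, ID1 over ID3 over ID2 over ID4, was the same in both libraries, and the intervals of neighbours did not overlap in either. Judged by counting error alone, the ID genes did not all change by one factor between the 2 libraries. The intervals below were not adjusted for the number of pairs. Of the 6 pairs of ID genes, 3 had a ratio of fold changes whose 95% interval left out 1, and ID3 was in each of them. The fold change of ID1 was 1.69 times that of ID3 (1.42 to 2.01), and that of ID2 was 1.38 times that of ID3 (1.08 to 1.76). That of ID3 was 0.397 times that of ID4 (0.210 to 0.713). ID1 and ID2 were not told apart at this depth, with a ratio of 1.23 (0.979 to 1.53), nor were ID1 and ID4 (0.670, 0.357 to 1.19). The share of ID1 among all ID tags was 50.4% (Clopper-Pearson interval 47.3 to 53.5) in shRNA-Con against 59.6% (57.5 to 61.7) in the library labelled shRNA-SOX2, and that of ID3 was 32.9% (30.1 to 35.9) and 23.1% (21.3 to 24.9).

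Of the 3 E protein genes, the partners of the ID proteins, 1 was lower and none was higher, beside 21.7% of all genes called. TCF12, the most abundant of them, fell from 267 tags to 77, a level 3.15-fold lower (adjusted p = 1.31e-20, Fisher's exact test). TCF3 had 81 and 59 tags and TCF4 18 and 37, of which neither passed (adjusted p = 0.341 and 0.0139, Fisher's exact test). Summed over each family, ID tags went from 1032 to 2193 and E protein tags from 366 to 173. There were 2.82 ID tags per E protein tag in shRNA-Con against 12.7 in the library labelled shRNA-SOX2, a 4.49-fold difference (3.68 to 5.50).

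**Figure D2:**
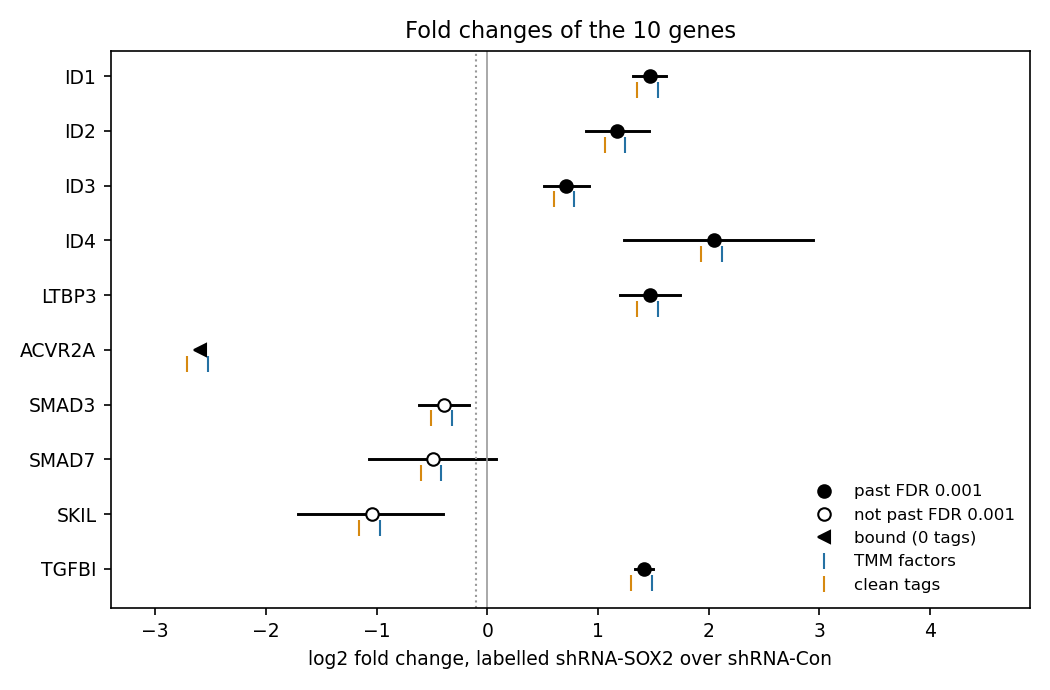
Log2 fold changes of the 10 genes, shRNA-SOX2 over shRNA-Con by label, with 95% Clopper-Pearson intervals; filled points passed FDR 0.001, coloured ticks give the values with TMM factors and clean tags, and the dotted line is the median of all genes (-0.10). The ID genes, LTBP3 and TGFBI lie between 0.71 and 2.05, and SMAD3, SMAD7 and SKIL lie between -1.04 and -0.39. ACVR2A, with 0 tags taken as 3, is drawn at -2.60.

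LTBP3 (4054; chromosome 11, 65538805 to 65558930, minus strand), which binds latent TGF-beta and anchors it to the matrix, had 159 tags in shRNA-Con against 399 in the library labelled shRNA-SOX2. Its level went from 69.0 to 190.6 CPM, a 2.76-fold increase (2.29 to 3.34, adjusted p = 1.40e-28, Fisher's exact test). Its relatives did not share this as a group. LTBP1 had 20 and 44 tags (adjusted p = 0.00384), LTBP2 63 and 47 (0.483) and LTBP4 110 and 70 (0.0543, Fisher's exact test), and none of them passed. The fold change of LTBP3 was 3.36 times that of LTBP2 (2.16 to 5.24) and 3.94 times that of LTBP4 (2.73 to 5.70), whereas its ratio to LTBP1 was 1.14 (0.616 to 2.05).

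Among the 13 other genes of latency and ligand capture in the table, 2 were higher, 1 was lower and 10 did not pass. Over all genes 21.7% were called. FBN1, the fibrillin to which LTBP proteins attach, had 21 tags in shRNA-Con against 101 in the library labelled shRNA-SOX2, a 5.29-fold increase (3.28 to 8.92, adjusted p = 2.72e-14, Fisher's exact test). ITGAV, the integrin chain that helps to release TGF-beta, had 696 and 1166 tags, a 1.84-fold increase (1.68 to 2.03). GREM1 encodes a secreted antagonist of BMP ligands. It had 35 tags in shRNA-Con against 0 in the library labelled shRNA-SOX2 (adjusted p = 1.81e-09, Fisher's exact test). With 0 taken as 3 tags, its level was 10.6-fold lower. The interval of the ratio reached up to 0.122, a smaller decrease than this.

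ACVR2A (92; chromosome 2, 147844517 to 147930826, plus strand) encodes a type II receptor for activins and some BMP ligands. It had 20 tags in shRNA-Con, or 8.68 CPM (5.30 to 13.4), and none in the other library. With 0 tags taken as 3, or 1.43 CPM, the level was 6.06-fold lower. The 95% interval of the ratio reached up to 0.223, a smaller decrease than this (adjusted p = 1.85e-05, Fisher's exact test). Of the 1161 genes with 15 to 25 tags in shRNA-Con, 14 had 0 tags in the library labelled shRNA-SOX2. Its close relative ACVR2B had 12 and 8 tags and did not pass (adjusted p = 0.639, Fisher's exact test). Of the 10 other receptor genes, 1 was higher and 1 lower, where 21.7% of all genes were called. TGFBR1, the signalling receptor of TGF-beta, had 118 tags in shRNA-Con against 185 in the library labelled shRNA-SOX2 (1.73-fold higher, 1.36 to 2.19). TGFBR2, the ligand-binding receptor that acts with it, had 350 and 174 tags and was 1.83-fold lower (ratio 0.547, 0.453 to 0.658).

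SMAD3 (4088; chromosome 15, 67063763 to 67195195, plus strand), which carries TGF-beta and activin signals into the nucleus, had 393 tags in shRNA-Con against 272 in the library labelled shRNA-SOX2. Its level of 170.6 and 129.9 CPM gave a ratio of 0.762 (0.650 to 0.891), and the adjusted p of 0.00226 (Fisher's exact test) fell short of the threshold. With clean tags the adjusted p was 4.61e-05, and over the alternatives it ranged up to 1. Of the 5 other transducers in the table, 2 were lower and none was higher, where 21.7% of all genes were called. SMAD1, the transducer of BMP signals, had 62 tags in shRNA-Con against 15 in the library labelled shRNA-SOX2, a level 3.76-fold lower (adjusted p = 3.47e-06, Fisher's exact test). SMAD2 had 430 and 221 tags and was 1.77-fold lower (adjusted p = 2.87e-11, Fisher's exact test). SMAD5, which acts beside SMAD1, had 143 and 131 tags with a ratio of 1.01, and SMAD4, the partner shared by both branches, had 163 and 117 (adjusted p = 0.121, Fisher's exact test). SMAD3 had a smaller decrease than SMAD1 and SMAD2. Its ratio of 0.762 was 2.86 times that of SMAD1 (1.57 to 5.53) and 1.35 times that of SMAD2 (1.07 to 1.70).

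SKIL (6498; chromosome 3, 170357678 to 170396835, plus strand) encodes SnoN, a corepressor that binds SMAD proteins and is itself induced by TGF-beta. It had 68 tags in shRNA-Con against 30 in the library labelled shRNA-SOX2, or 29.5 and 14.3 CPM, with a ratio of 0.486 (0.305 to 0.756). The adjusted p was 0.00312 (Fisher's exact test), and 0.00074 with clean tags, with a range up to 1 over the alternatives. SKI, its relative, had 45 and 36 tags, and the fold changes of the pair were not told apart (0.553, 0.285 to 1.07).

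SMAD7 (4092; chromosome 18, 48919853 to 48952052, minus strand), an inhibitory SMAD that both branches induce, also had 68 tags in shRNA-Con, against 44 in the library labelled shRNA-SOX2. A difference was not detectable at this depth (ratio 0.712, 0.476 to 1.06, adjusted p = 0.178, Fisher's exact test). SMAD6, the inhibitor of the BMP branch, had 65 and 78 tags and did not pass either (adjusted p = 0.210, Fisher's exact test). The ratio of the fold change of SMAD7 to that of SMAD6 was 0.541 (0.316 to 0.918). This interval was not adjusted for the number of pairs compared, and SMAD6 was added after its values were seen. Of the 11 other inhibitors, 1 was higher and 1 lower, where 21.7% of all genes were called. TGIF1, a homeodomain corepressor, had 983 tags in shRNA-Con against 1287 in the library labelled shRNA-SOX2 (1.44-fold higher), and PMEPA1, a feedback inhibitor induced by TGF-beta, had 793 and 500 (1.44-fold lower).

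TGFBI (7045; chromosome 5, 136028895 to 136063818, plus strand), a secreted matrix protein named for its induction by TGF-beta, was the most abundant of the 10 genes. It had 1798 tags in shRNA-Con against 4354 in the library labelled shRNA-SOX2, or 780.3 and 2079.5 CPM. The 2.66-fold increase had, on the log2 scale, the narrowest interval of the 9 genes with tags in both libraries (2.52 to 2.82, adjusted p = 6.24e-294, Fisher's exact test).

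Of the 19 other targets of TGF-beta in the table, besides TGFBI, LTBP3, SKIL and SMAD7, 4 were higher, 7 were lower and 8 did not pass. The share called over all genes was 21.7%. Higher were CDKN1A, the cell cycle inhibitor p21, with 696 tags in shRNA-Con against 1941 in the library labelled shRNA-SOX2 (3.07-fold), TIMP1 with 483 and 886 (2.02-fold), TGIF1, and FN1 with 980 and 1102 (1.24-fold). Lower were the cytokine gene IL11 with 311 and 49 tags (5.77-fold), KLF10, an early TGF-beta response gene, with 352 and 132 (2.42-fold), the collagen gene COL4A1 with 113 and 45 (2.28-fold), BHLHE40 with 502 and 226 (2.02-fold), JUNB with 171 and 86 (1.81-fold), PMEPA1, and TPM1 with 1254 and 894 (1.27-fold). FN1 did not pass with clean tags (adjusted p = 0.00782, Fisher's exact test). The median log2 fold change of the 22 targets with at least 20 tags was -0.42, beside -0.10 for all 10045 such genes. These 22 include TGFBI, LTBP3, SKIL and SMAD7.

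Among the ligands, none of the 12 in the table was higher and 3 were lower, where 21.7% of all genes were called. GDF15, a stress-induced relative of TGF-beta, had 2402 tags in shRNA-Con against 1343 in the library labelled shRNA-SOX2 and was 1.63-fold lower (adjusted p = 6.32e-46, Fisher's exact test). INHBB, an activin subunit, had 291 and 171 tags and TGFB2 had 211 and 124, each 1.55-fold lower, and TGFB2 did not pass with TMM factors (adjusted p = 0.00278, Fisher's exact test). TGFB1 had 361 and 404 tags and did not pass (adjusted p = 0.0139, Fisher's exact test). Over all lists, 70 genes besides the 10 were in the table, of which 7 were higher, 15 lower and 48 did not pass. This was 31.4% called, beside 21.7% of all genes, and the median log2 fold change of the 59 with at least 20 tags was -0.26. These shares were not matched for tags. Of all 13137 genes 10045 had at least 20 tags, and no gene with fewer than 12 was called.

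**Figure D3:**
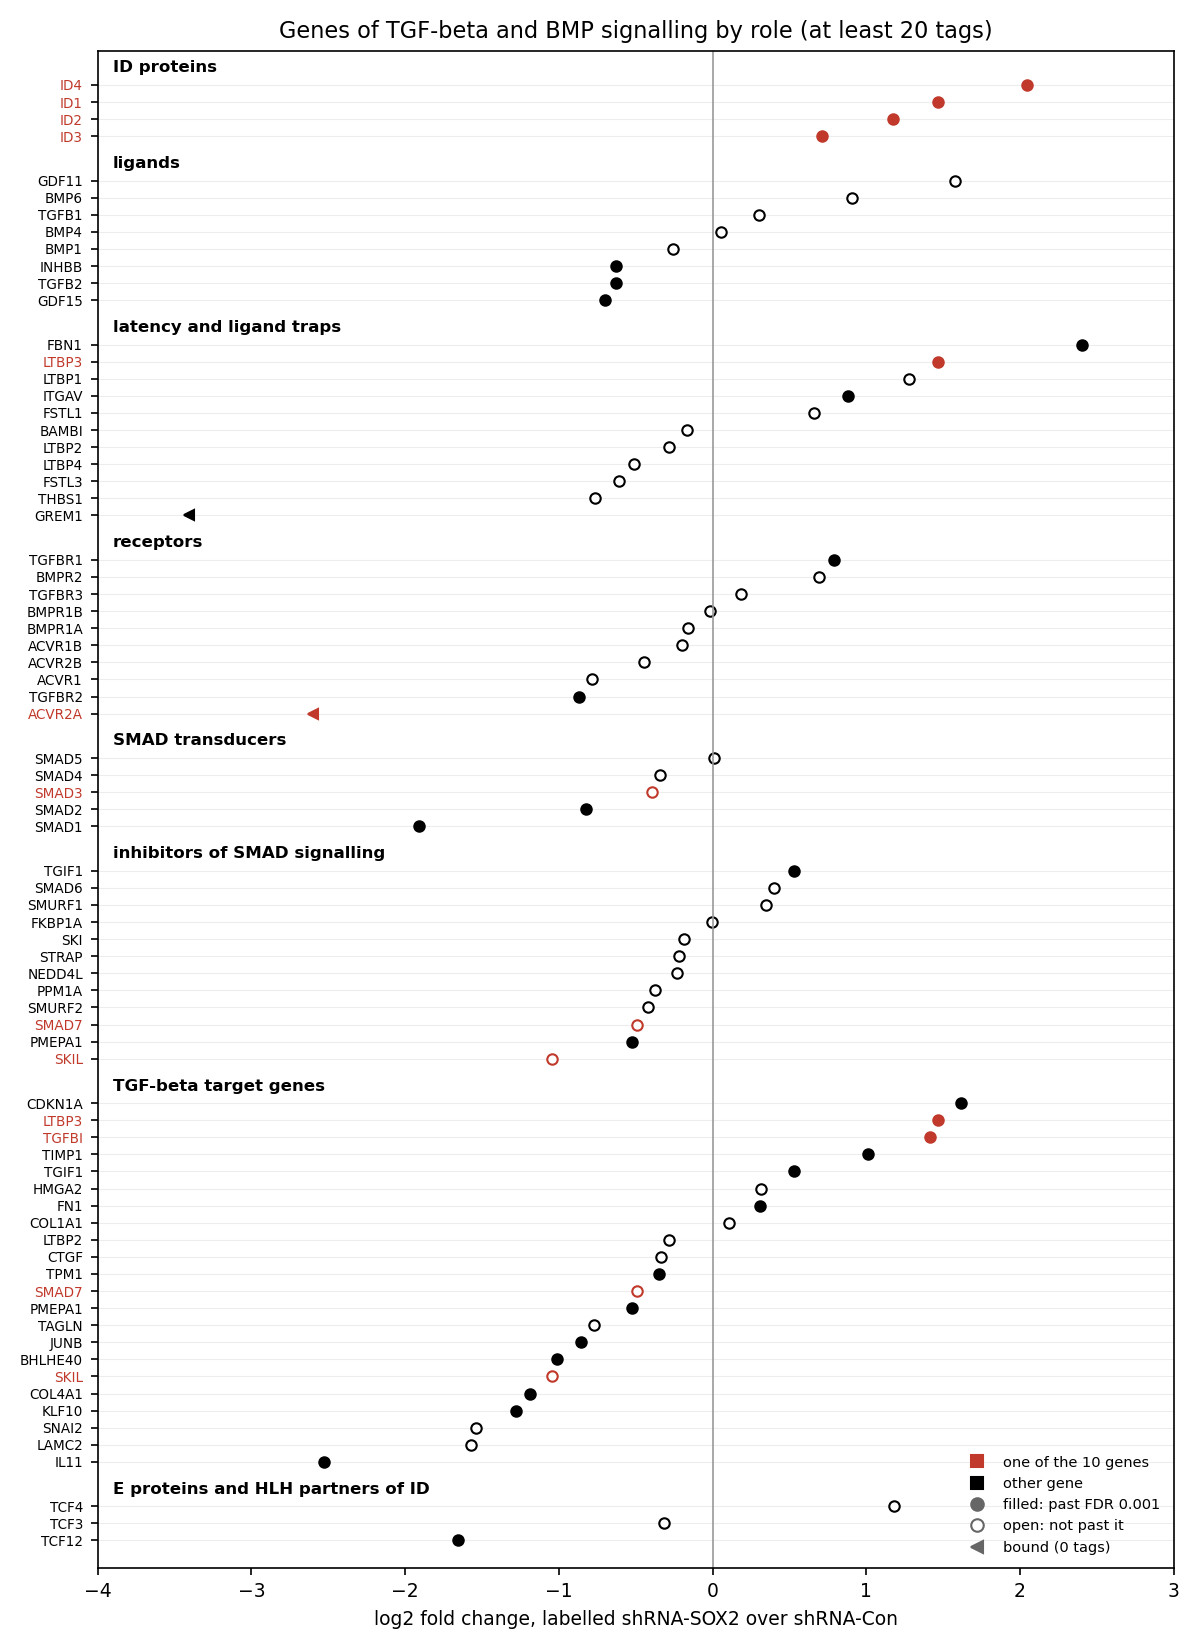
Log2 fold changes, shRNA-SOX2 over shRNA-Con by label, of the listed genes with at least 20 tags, grouped by role, with the 10 genes in red. Filled points passed FDR 0.001, and triangles are genes with 0 tags, drawn with 0 taken as 3. The ID genes are the group with every point to the right of 0, and among the SMAD transducers SMAD1 (-1.91) and SMAD2 (-0.82) are filled.

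All of the 10 genes had at least 20 tags, which 10045 genes of the table reached. Of the 10, 5 were at least 2-fold higher, a size that 10.4% of these genes had, and 2 (ACVR2A and SKIL) were at least 2-fold lower, which 13.0% had. The median log2 fold change of the 10 was 0.94. The calls take the spread between cultures as 0. When a biological coefficient of variation of 0.2 was assumed in edgeR's exact test, 0 of the 10 were called, against 0.860% of all genes. An unadjusted p under 0.05 in that test was found for 6 of the 10 and for 2481 of all 13137 genes. The adjusted p of the 10 genes then ran from 0.00332 for ACVR2A to 0.708 for SMAD3, with 0.0131 for ID4, 0.0165 for ID1 and 0.367 for ID3. IL11 and GREM1 passed that test (adjusted p = 3.86e-05 and 3.34e-05, edgeR's exact test). Of the 10 genes, 4 overlap a gene on the opposite strand in the annotation, namely ID2, ID4, ACVR2A and SMAD3. Whether tags were counted by strand is not given in the sources used here, so that reads of such partners cannot be told apart.

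**Figure D4:**
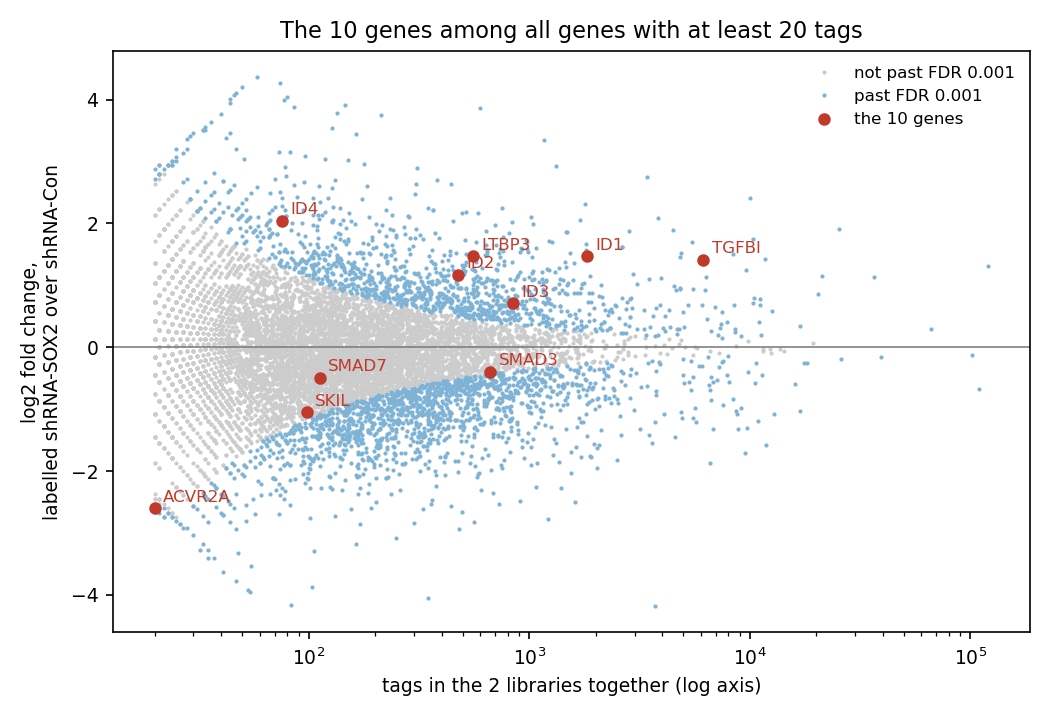
Log2 fold change against the tags in the 2 libraries together (log axis) for all genes with at least 20 tags, those past FDR 0.001 in blue and the 10 genes in red. SMAD3 and SKIL lie at the border of the called genes, SMAD7 lies within the uncalled ones, and ACVR2A, with 20 tags in all, lies at the left edge.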

How the data were processed

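Digital gene expression tags of oligo(dT)-selected mRNA were measured in 2 A549 libraries, 1 per group. The authors deposited tag counts per Entrez Gene ID without normalization, beside TPM scaled to clean tags, in which 0 tags is written as 0.01. The processing notes name hg19, and the aligner and annotation are not given in the sources used here. The authors' log2 ratios, p-values and FDR were not used. TPM served only to recover the clean tags (3516267 for shRNA-Con, 3456233 for the library labelled shRNA-SOX2).

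Counts of each gene and of all other gene tags were set against each other in Fisher's exact test (two-sided), p-values were adjusted over 13137 genes by the method of Benjamini and Hochberg, and the study's FDR of 0.001 was used, since edgeR's quasi-likelihood test needs replicates. Fold changes set counts below 3 to 3. Ratios carry 95% Clopper-Pearson intervals, levels exact Poisson ones, and ratios of fold changes exact conditional ones. All cover counting error only. Symbols of 22 genes turned into dates were restored from their IDs. Alternatives were clean tags, the median ratio, TMM factors, at least 10 tags per gene, edgeR's exact test with an assumed coefficient of variation, an FDR of 0.05, a minimum fold change and 0.5 added to counts. The genes and lists were chosen with earlier results of these data known. Named were the 10 genes, SOX2, each gene of the pathway lists past FDR 0.001 and the most abundant gene per pathway list. One listed target gene is not reported here and was left out of the counts. Relatives of the 10 genes, TGFB1, TCF3, TCF4 and the cell type markers given were added after their values were seen. Promoter windows were found for 10 of 10 genes (RefSeq), and motifs were searched on both strands. ACAATG, a SOX motif, was found in no window of the 10 genes and in 9.45% of all promoters. CANNTG, which E proteins bind, was found in windows of ID2, ID4, LTBP3, SMAD3 and SMAD7 and in 62.2% of all promoters. Fisher's exact test and the ratio intervals were tested on simulated counts that held counting error only, without spread between cultures. Python 3.11.15, scipy 1.17.1, R 4.3.3, edgeR 4.0.16 and DESeq2 1.42.0 were used.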

Additional observations from a re-analysis of the deposited data

How the results depend on the processing

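No paired analysis was possible because there was a single library on either side, and so neither could be left out. The 7 calls among the 10 genes stayed at 7 with TMM factors, the median ratio or a minimum of 10 tags, rose to 9 with clean tags or an FDR of 0.05, and were 6 when an absolute log2 fold change of 1 or more was also required. Assuming a biological coefficient of variation of 0.1 left 6 (ID3 was lost, adjusted p = 0.013, edgeR's exact test). One of 0.2 or 0.4 left 0. Then 6 and 2 of the 10 had an unadjusted p under 0.05, beside 2481 and 627 of all genes (edgeR's exact test). The direction of each of the 10 genes held under each scaling and with 0.5 added to counts, where ACVR2A moved from -2.60 to -5.22.

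Of all genes, 2849 were called, and 1166, 113 and 0 with assumed coefficients of 0.1, 0.2 and 0.4 (627 at an unadjusted p under 0.05 with the last), 4902 with an FDR of 0.05 and 1570 with the minimum fold change. Of the other pathway genes 22 were called, and 10, 2 and 0 with these coefficients, 33 with an FDR of 0.05 and 10 with the minimum fold change. These losses follow from the assumed spread or the stricter rule, and no replicate says which spread applies. SOX2 did not pass under any alternative run. Depth limits ID4, ACVR2A, SMAD7 and SKIL most, each with 112 or fewer tags in all.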

Other observations

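ACVR2A and GREM1 were among 8 genes that had 20 or more tags in shRNA-Con but 0 in the library labelled shRNA-SOX2, of 8707 genes with at least 20 tags in shRNA-Con. The others were the serine protease gene PRSS16 with 41 tags in shRNA-Con, the neuronal pentraxin gene NPTX1 with 32, NGEF and the zinc finger gene ZBTB8A with 22 each, the cationic amino acid transporter gene SLC7A2 with 21 and BEND6 with 20. These genes were chosen by their values, and with 1 library per condition their absence has no replicate check.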
